A study of Mus musculus with 9 samples.

Results

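The 44 genes described here encode machinery that carries proteins between the endoplasmic reticulum (ER) and the Golgi apparatus. They were taken from a fixed list of gene symbols, matched to the Ensembl identifiers of the count tables through GENCODE M21, and all 44 of 44 were found among the 54532 genes measured. All 44 also passed the filter on low counts, as did 15348 genes in all. The list covers the COPII coat and its assembly factors (15 genes), the Sec22 family (3), the COPI coat (9), the p24 proteins (8), the KDEL receptors (3) and cargo receptors (6).

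Expression was measured by RNA-seq in sublingual glands of wild-type mice, in 9 libraries. Of these, 3 came from glands 7 days after 10 Gy of radiation, 3 from glands 14 days after 10 Gy, and 3 from control glands that received no radiation. Each RNA sample was taken from 4 tissue sections of 50 µm and treated with DNase, so a library holds every cell type of the sectioned gland. The labels number the samples but do not say that they came from separate animals, so the p-values below reflect how far the numbered samples of a group vary, and some of that variation may be technical.

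Newly made secretory and membrane proteins leave the ER in vesicles with a COPII coat. The GTPase Sar1 starts the coat, the inner layer of Sec23 and Sec24 collects cargo, and the outer cage of Sec13 and Sec31 bends the membrane. COPI vesicles carry escaped ER proteins and cycling receptors back, the KDEL receptors and p24 proteins among them, and a mucous gland such as the sublingual gland sends large amounts of mucin along this route.

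The promoters of some genes of this route are known to carry elements read by the transcription factors of the unfolded protein response. RefSeq promoters of GRCm38.p6 were listed for 39 of the 44 genes, and the 250 bases before each start were searched on both strands for 3 such motifs. The UPRE core, TGACGTGG, was found in 4 of 39 genes (10.3%), against 0.603% of 27025 genes with a listed promoter. Those 4 sites are shown because they are the matches among these genes, and the motif, or its reverse complement where it lies on the other strand, is in capitals, read 5′ to 3′ along the gene's strand:
Sec16b, chr1:157506740-157506771, + strand: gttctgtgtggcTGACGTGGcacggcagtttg
Sec24d, chr3:123267458-123267489, + strand: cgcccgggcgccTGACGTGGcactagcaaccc
Copb1, chr7:114254689-114254720, − strand: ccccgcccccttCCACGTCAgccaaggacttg
Kdelr3, chr15:79516366-79516397, + strand: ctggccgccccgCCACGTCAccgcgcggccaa
The sites lay 44 bases (Sec16b), 26 bases (Sec24d), 28 bases (Copb1) and 30 bases (Kdelr3) before the listed RefSeq start. The gene bounds of GENCODE M21, used for all else here, differ from these starts. They begin at 157506728 for Sec16b and 123267455 for Sec24d, and at 114254711 for Copb1 on the minus strand. By these bounds the motifs of Sec16b, Sec24d and Copb1 lie inside the gene. That of Kdelr3, which begins at 79516411, lies before it. The longer ERSE, CCAAT and CCACG set 9 bases apart, was found in 0 of 39 genes against 0.13% of all, and ERSE-II, ATTGG and CCACG with 1 base between them, in 0 of 39 against 0.037%. The reverse complement of the UPRE core begins with CCACG, so these motifs share letters.

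Most of these genes differed between day 7 and control glands, but not in a single direction. At day 7, 12 of the 44 were higher, 21 were lower and 11 did not pass the test (edgeR quasi-likelihood F test, Benjamini-Hochberg adjusted p under 0.05 over all genes tested). The same comparison called 30.6% of all 15348 genes tested, 15.8% as higher and 14.8% as lower, and 40.2% of the 10498 genes that averaged at least 5 CPM (CPM, counts scaled to a common library total by TMM). In all 33 genes called, the day 7 and control libraries did not overlap, as was true of 95% of the 4692 genes called in all. The median log2 fold change of the 44 genes was −0.06, against 0.02 over all genes. The genes that were higher were mostly large coat subunits and scaffolds, while small coat subunits, the p24 proteins, the KDEL receptors and the cargo receptors were mostly lower. Of the 4 genes with the UPRE core, Sec16b, Sec24d and Copb1 were higher and Kdelr3 was lower. In the edgeR fit corrected for gene length and GC content, described below, none of these 4 was called. Their adjusted p-values in that fit were 0.0637 (Sec16b), 0.127 (Sec24d), 0.328 (Copb1) and 0.408 (Kdelr3). Whether the motif has a part in these changes was not tested.

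**Figure D1:**
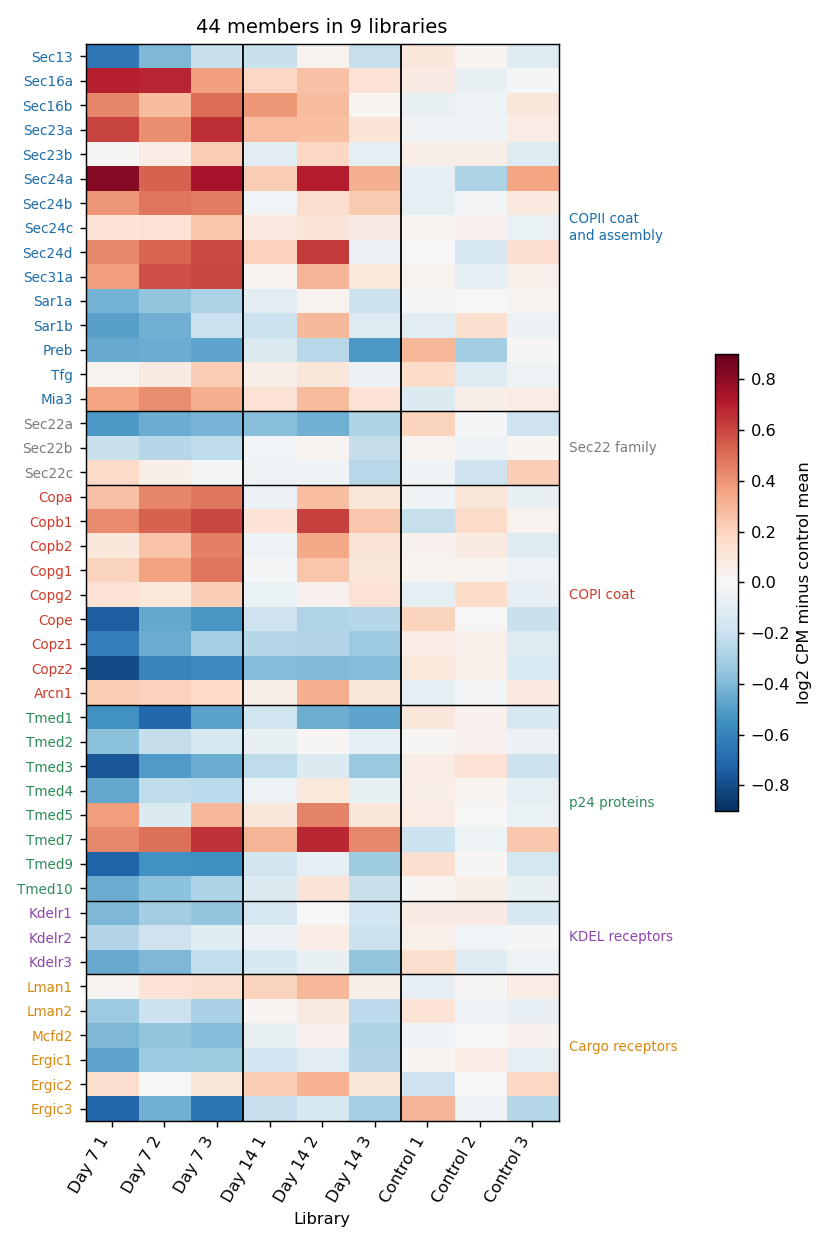
Level of the 44 genes in each of the 9 libraries, as log2 CPM minus the mean of the 3 control libraries; rows are genes grouped by role, columns are libraries, red is above and blue below the control mean. Sec16a, Sec24a and Sec31a of the COPII group are red in the 3 day 7 libraries, while Copz2, Cope, Tmed9 and Ergic3 are blue there.

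By day 14 few of these differences passed the test. Against control glands, 1 of the 44 was higher (Tmed7) and 1 was lower (Copz2), and this comparison called 1.76% of all genes, 1.13% as higher and 0.632% as lower. An unadjusted p under 0.05 was reached by 10 of the 44 genes and by 21.3% of all genes, so this count was near the background. The median log2 fold change was −0.0006, against 0.01 over all genes. Against day 7 glands directly, 1 gene was higher at day 14 (Tmed9) and 2 were lower (Sec16a and Sec31a), where 6.59% of all genes were called, 3.72% as higher and 2.87% as lower. In that last comparison 21 of the 44 had an unadjusted p under 0.05, against 22.7% of all genes, and the median was 0.11, against 0.0014 over all genes. A gene past the threshold at day 7 and not at day 14 is shown to differ between these times only in the direct comparison.

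The depth of the libraries ran from 15962399 to 19441239 counts, and 3 counts in a library stood for 0.159 to 0.202 CPM. The 20 most abundant genes took 31.0 to 32.0% of counts at day 7, 32.7 to 34.4% at day 14 and 37.1 to 38.6% in controls. Acinar markers (Muc19, Smgc, Dcpp1, Dcpp2, Dcpp3, Aqp5, Bhlha15, Spdef and Agr2) summed to 150070 to 158766 CPM at day 7, 191949 to 198888 at day 14 and 195193 to 280045 in controls, and 7 of the 9 were lower at day 7. Markers of dividing cells (Mki67, Top2a, Ccnb1, Cdk1 and Ccna2) summed to 61.4 to 100.1 CPM at day 7, 8.45 to 22.4 at day 14 and 5.18 to 12.7 in controls, and all 5 of 5 were higher at day 7. Duct markers (Krt7, Krt8, Krt19, Klk1, Egf, Scnn1a, Ascl3 and Foxi1) summed to 2263 to 2397 CPM at day 7, 2137 to 2810 at day 14 and 3410 to 5066 in controls. Of these 8, 2 were higher and 3 were lower at day 7. Plasma cell markers ranged from 109 to 466 CPM at day 7, 141 to 1382 at day 14 and 423 to 1691 in controls, and 3 of the 7 tested were lower at day 7. Fibroblast markers summed to 407 to 494 CPM at day 7, 397 to 507 at day 14 and 354 to 382 in controls, and 3 of 6 (Col1a1, Col1a2 and Col3a1) were higher at day 7. Endothelial markers summed to 410 to 493 CPM at day 7, 391 to 433 at day 14 and 330 to 372 in controls, and 2 of 5 (Vwf and Tek) were higher at day 7. Macrophage markers summed to 69.2 to 101 CPM at day 7, 142 to 177 at day 14 and 110 to 126 in controls, with 2 of 6 lower at day 7 than in controls and 3 of 6 higher at day 14 than at day 7. Submandibular duct markers had 3 of 6 lower and 1 higher at day 7, and summed to 248 to 272 CPM at day 7, 229 to 295 at day 14 and 206, 218 and 449 in the 3 controls, control 3 being the high one. Skeletal muscle markers lay between 1.65 and 4.87 CPM in all 9 libraries. The part of these cell types in the results below was not tested. In whole tissue, fewer cells of a type and less RNA per cell cannot be told apart.

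A second measure moved with the groups and bears on the marker calls above and on every gene below: gene length. Over 15343 genes, the change at day 7 correlated with exonic length (Spearman 0.42, across genes that share the same libraries, given with no test), and over the 44 genes the value was 0.60. Genes of at least 4000 bp were called higher in 26.1% and lower in 6.27% of 7873 cases, and shorter genes in 4.86% and 23.8% of 7470. Of the 44, the 26 of at least 4000 bp held all 12 that were higher and 5 that were lower, while among the 18 shorter genes 0 were higher and 16 were lower. Each library also had a length trend of its own, with a Spearman of 0.22 to 0.38 at day 7, −0.03 to 0.04 at day 14 and −0.38 to −0.17 in controls. A fit that removed the smooth trend of length and GC content from each library called 3 of the 44 higher and 19 lower at day 7, with a median of −0.24 against −0.06 over all genes. That fit called 7.34% of all genes higher and 14.7% lower, so that 33.2% of its calls were higher, against 51.6% before correction. Of the 33 genes called at day 7, 19 were also called by the corrected fit and 14 were not. The share of all called genes that the corrected fit kept was not counted. Of the markers, the corrected fit called 6 acinar genes lower and all 5 of dividing cells higher at day 7. It called 0 of the 5 endothelial, 6 macrophage and 7 tested plasma cell markers at day 7. Of fibroblast markers, Col1a1 and Col1a2 were higher and Dcn was lower, and 1 submandibular duct marker was lower. Of duct markers, Scnn1a was higher and Klk1 was lower. At day 14 against day 7, 3 macrophage markers were still higher. What gives rise to the length trend was not tested, and each role below is given with its corrected counts.

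**Figure D2:**
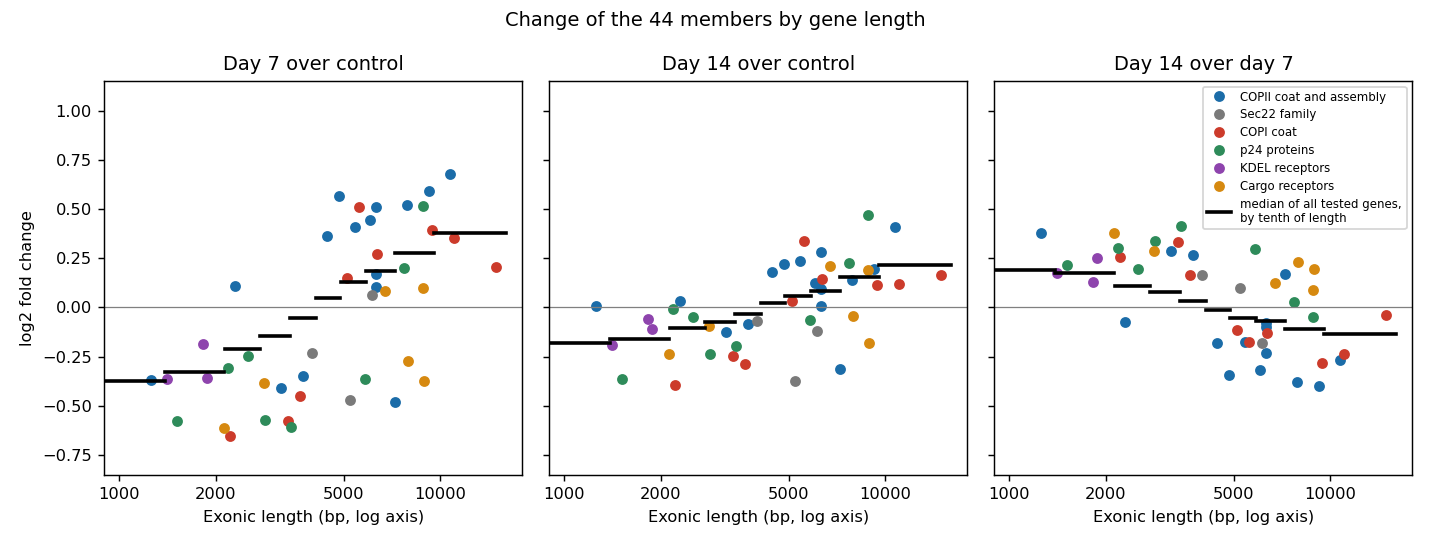
Log2 fold change of the 44 genes (points, coloured by role) against exonic length in bp on a log axis, for day 7 over control, day 14 over control and day 14 over day 7; black lines are the median of all tested genes in each of 10 length classes. At day 7 the 18 genes under 4000 bp hold 16 that were lower and the 26 longer genes hold all 12 that were higher, and the lines rise from left to right.

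Among the COPII genes at day 7, 8 of 15 were higher, 4 were lower and 3 did not pass, with a median log2 fold change of 0.36. The corrected fit called 3 higher (Sec16a, Sec24b and Sec31a) and 4 lower (Sec13, Sar1a, Sar1b and Preb), with a median of 0.20. Sec16a (ENSMUSG00000026924, chromosome 2, 26409431 to 26445216, minus strand) encodes the large scaffold that organises ER exit sites. Its level was 1107, 1099 and 881 CPM in the 3 day 7 libraries, 777, 819 and 748 in the day 14 libraries and 718, 652 and 679 in the control libraries. Every day 7 library lay above every other library, and every day 14 library above every control. The day 7 level was 1.51-fold that of controls (log2 fold change 0.59, SE 0.097, adjusted p = 0.000228). The value at day 14 against control was 0.19 (adjusted p = 0.256), and directly against day 7 the gene fell by 0.40 (SE 0.097, adjusted p = 0.0194). Its shorter paralogue Sec16b was higher at day 7 by 0.41 (adjusted p = 0.0126), at a level of 42.7 ± 3.34 CPM at day 7 and 32.1 ± 2.04 CPM in controls (SD, n = 3 each).

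The outer cage gave opposite results for its partner subunits. Sec31a (ENSMUSG00000035325, chromosome 5, 100361649 to 100416234, minus strand), the rod-forming subunit, had 483, 557 and 565 CPM at day 7, 377, 460 and 398 at day 14 and 382, 353 and 385 in controls. The day 7 libraries stood above all others, and day 14 and control libraries overlapped. Sec31a was higher at day 7 than in controls by 0.52 (SE 0.096, adjusted p = 0.000608) and lower at day 14 than at day 7 by a log2 fold change of −0.38 (SE 0.096, adjusted p = 0.0244). Sec13 (ENSMUSG00000030298, chromosome 6, 113728062 to 113740743, minus strand), which pairs with Sec31 in the cage and also serves in nuclear pores, had 94.3, 111 and 128 CPM at day 7, 129, 151 and 127 at day 14 and 158, 149 and 136 in controls. Sec13 fell at day 7 (log2 fold change −0.41, adjusted p = 0.0086), with no overlap between day 7 and control libraries. Within each library the log2 ratio of Sec31a to Sec13, per length, averaged 0.96 ± 0.12 at day 7, 0.29 ± 0.05 at day 14 and 0.03 ± 0.14 in controls (SD, n = 3 each). The difference between day 7 and control was 0.93 (exact permutation test, two-sided, p = 0.1, the smallest that 3 against 3 allows). After correction for length and GC content it was 0.69, which was not tested. This pair was chosen after the values of both genes were seen.

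Of the inner coat, Sec24b (ENSMUSG00000001052, chromosome 3, 129982759 to 130061553, minus strand), a cargo-binding subunit, had 67.3, 71.1 and 70.2 CPM at day 7, 50.2, 56.9 and 60.1 at day 14 and 48.3, 50.7 and 54.1 in controls. The 3 day 7 libraries lay close together and above the rest. Sec24b was higher at day 7 by 0.45 (SE 0.1, adjusted p = 0.00261). Sec23a (ENSMUSG00000020986, chromosome 12, 58958383 to 59012017, minus strand), the subunit that speeds GTP hydrolysis by Sar1, had 21.1, 18.5 and 21.8 CPM at day 7, 16.8, 16.7 and 15 at day 14 and 13.5, 13.5 and 14.5 in controls, and the 3 groups did not overlap. Its day 7 level was higher by 0.57 (SE 0.14, adjusted p = 0.00394), a call that the corrected fit did not keep (0.25, adjusted p = 0.188). Sec24a was higher by 0.68 (SE 0.16, adjusted p = 0.00585) and Sec24d by 0.51 (adjusted p = 0.0109), neither of them called after correction. Sec23b, the more abundant Sec23 by far, gave 0.10 (adjusted p = 0.46), and Sec24c gave 0.17 (adjusted p = 0.127).

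Among the other COPII genes, Sar1a, Sar1b and Preb were lower, Mia3 was higher and Tfg did not pass. Sar1a (ENSMUSG00000020088, chromosome 10, 61680299 to 61693297, plus strand) had 279, 293 and 309 CPM at day 7, 350, 382 and 327 at day 14 and 370, 374 and 378 in controls. Its control libraries lay close together, all above the day 7 libraries, and Sar1a fell at day 7 by 0.35 on the log2 scale (SE 0.087, adjusted p = 0.00515). Sar1b gave −0.37 (adjusted p = 0.0292) and Preb, the ER membrane protein that loads Sar1 with GTP, −0.48 (adjusted p = 0.0104). Mia3, which helps to load bulky cargo such as collagen, was higher by 0.36 (adjusted p = 0.00484), and Tfg, an organiser of exit sites, gave 0.11 (adjusted p = 0.449). So before correction the day 7 changes within COPII ran up for Sec16, Sec24a, Sec24b, Sec24d, Sec23a, Sec31a and Mia3. They ran down for Sec13, Sar1 and its activator. The corrected fit kept the calls of those that ran down, but of those that ran up only Sec16a, Sec24b and Sec31a. In that fit Mia3 gave 0.20 (adjusted p = 0.126) and Sec16b 0.295 (adjusted p = 0.0637).

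**Figure D3:**
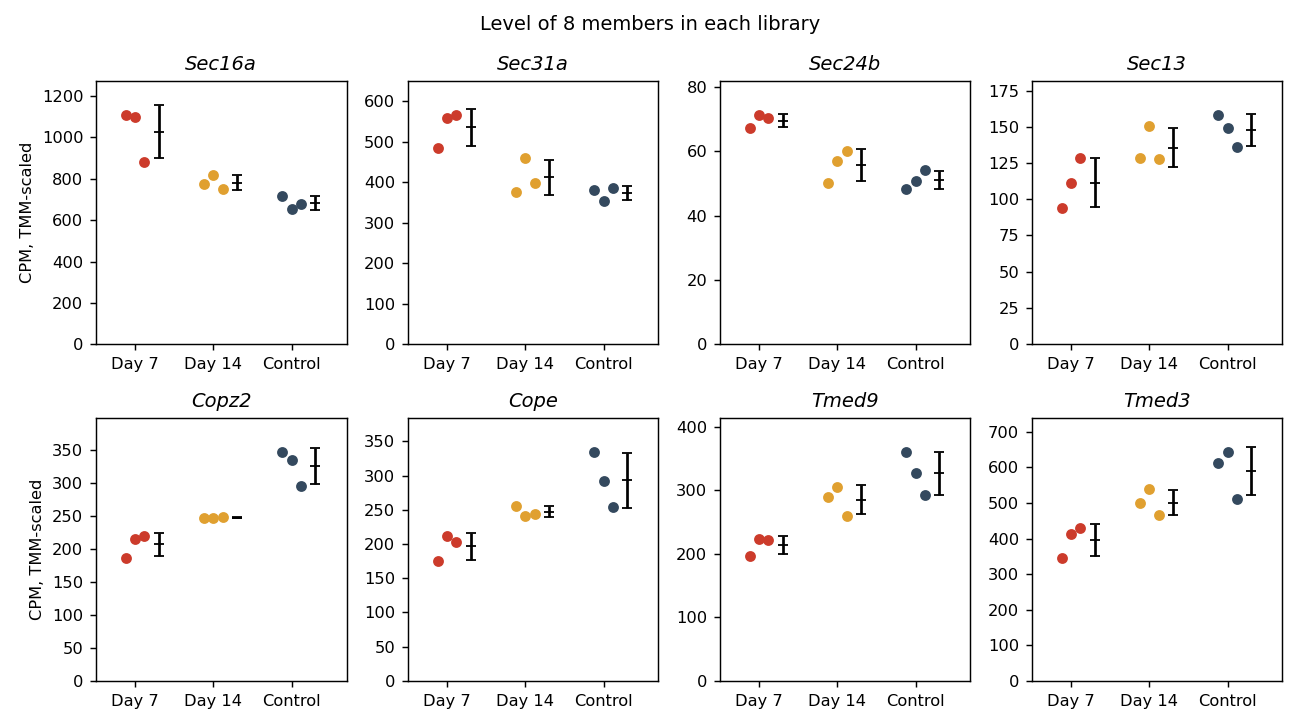
Level in CPM (TMM-scaled, axes from 0) of 8 genes in each library; points are libraries and bars the mean and SD of 3. Day 7 libraries of Sec16a, Sec31a and Sec24b lie above, and those of Copz2, Cope, Tmed9, Tmed3 and Sec13 below, all 3 control libraries.

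The Sec22 family had no gene higher and 2 of 3 lower at day 7, and the same 2, Sec22a and Sec22b, were lower after correction. Sec22a (ENSMUSG00000034473, chromosome 16, 35311131 to 35363918, minus strand), a relative of Sec22b that lacks the SNARE motif, had 22.6, 23.7 and 24.1 CPM at day 7, 24.8, 24 and 26.6 at day 14 and 37.2, 31.9 and 28.5 in controls. Both irradiated groups lay below all controls. Sec22a fell at day 7 (log2 fold change −0.47, SE 0.12, adjusted p = 0.00746), and its day 14 value against control was −0.37 (adjusted p = 0.096), or −0.62 with an adjusted p of 0.0279 in the corrected fit. Sec22b (ENSMUSG00000027879, chromosome 3, 97901190 to 97923276, plus strand), the SNARE that fuses ER-derived vesicles, had 134, 129 and 131 CPM at day 7, 151, 156 and 133 at day 14 and 157, 149 and 156 in controls. Its fall at day 7 was small (−0.23, SE 0.087, adjusted p = 0.0497) and lay at the threshold. Sec22c had 15.2, 14.1 and 13.4 CPM at day 7, 13.1, 13.2 and 11.4 at day 14 and 13.2, 11.9 and 15.7 in controls, and gave 0.06 at day 7 (adjusted p = 0.8).

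Of the 9 COPI coat subunits, 3 were higher at day 7 (Copa, Copb1 and Copg1), 3 were lower (Cope, Copz1 and Copz2) and 3 did not pass, with a median of 0.20. After correction 0 were higher and 4 were lower (Cope, Copz1, Copz2 and Arcn1), with a median of −0.12. Copz2 (ENSMUSG00000018672, chromosome 11, 96849870 to 96861203, plus strand), a form of the small zeta subunit, had 186, 215 and 219 CPM at day 7, 247, 246 and 248 at day 14 and 347, 334 and 295 in controls. The 3 groups did not overlap, with day 14 in between. Copz2 fell at day 7 to 0.636-fold of the control level (log2 fold change −0.65, SE 0.092, adjusted p = 6.64e-05), the smallest p among the 44 genes in any of the 3 comparisons. It was also the gene that was lower at day 14 than in controls (−0.40, SE 0.092, adjusted p = 0.035), though the corrected fit gave −0.32 (adjusted p = 0.0701).

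The other zeta form was also lower. Copz1 (ENSMUSG00000060992, chromosome 15, 103272714 to 103299868, plus strand) had 174, 195 and 216 CPM at day 7, 223, 222 and 213 at day 14 and 280, 275 and 246 in controls, and fell at day 7 by 0.45 (SE 0.094, adjusted p = 0.00143). Cope (ENSMUSG00000055681, chromosome 8, 70302518 to 70312993, plus strand), the epsilon subunit, had 175, 212 and 202 CPM at day 7, 256, 241 and 244 at day 14 and 334, 292 and 254 in controls, and fell by 0.58 (SE 0.10, adjusted p = 0.000447). For both genes the day 7 libraries lay below every control. Copb1 (ENSMUSG00000030754, chromosome 7, 114215559 to 114254711, minus strand), the beta subunit, ran the other way. It had 258, 277 and 292 CPM at day 7, 209, 295 and 228 at day 14 and 167, 217 and 197 in controls. Copb1 was higher at day 7 by 0.51 (SE 0.12, adjusted p = 0.00402), but by 0.17 in the corrected fit, where it was not called (adjusted p = 0.328). Copa (alpha, 0.39, adjusted p = 0.00515) and Copg1 (gamma, 0.35, adjusted p = 0.00871) were called higher likewise, and neither was called after correction. Arcn1, the delta subunit and the longest of the 44 at 14915 bp, gave 0.20 (adjusted p = 0.0983) and −0.28 after correction (adjusted p = 0.0433).

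**Figure D4:**
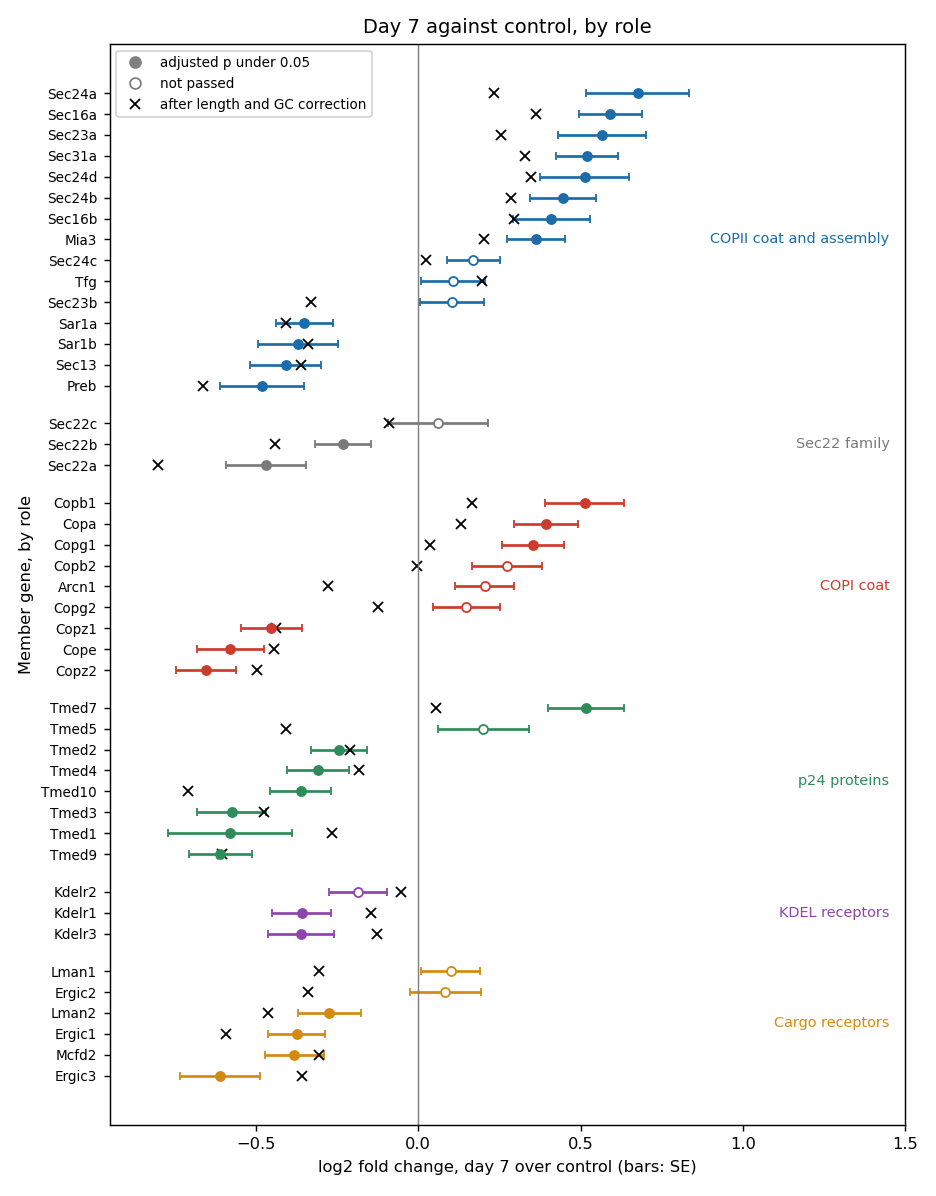
Log2 fold change of each gene at day 7 over control with its SE, grouped by role; filled points passed the adjusted p threshold of 0.05, open points did not, and crosses give the change after correction for length and GC content. Filled points to the right are mostly COPII and COPI genes, and correction moved those of Copa, Copb1, Copg1 and Tmed7 close to 0.

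Among the p24 proteins, which cycle between the ER and Golgi as cargo adaptors, 6 of 8 were lower at day 7, 1 was higher (Tmed7) and 1 did not pass, with a median of −0.34. After correction 3 were lower (Tmed3, Tmed9 and Tmed10), 0 were higher and the median was −0.34. Tmed9 (ENSMUSG00000058569, chromosome 13, 55573732 to 55597697, plus strand) had 197, 223 and 222 CPM at day 7, 290, 306 and 260 at day 14 and 360, 328 and 292 in controls. Every day 7 library lay below the lowest value of both other groups. Tmed9 fell at day 7 (−0.61, SE 0.098, adjusted p = 0.000188) and was higher at day 14 than at day 7 by 0.41 (SE 0.098, adjusted p = 0.0166), and by 0.39 in the corrected fit (adjusted p = 0.0238). Tmed3 (ENSMUSG00000032353, chromosome 9, 89699206 to 89705068, minus strand) had 345, 413 and 431 CPM at day 7, 500, 538 and 466 at day 14 and 614, 643 and 512 in controls, and fell at day 7 by 0.57 (SE 0.11, adjusted p = 0.000566). Again day 7 lay below both other groups without overlap.

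Tmed10 (ENSMUSG00000021248, chromosome 12, 85340614 to 85374847, minus strand), a core p24 protein that works with Tmed2, had 266, 281 and 298 CPM at day 7, 333, 392 and 315 at day 14 and 366, 375 and 346 in controls. It fell at day 7 by 0.36 (SE 0.094, adjusted p = 0.00711). The corrected fit gave a larger change of −0.71 (adjusted p = 6.02e-05), and also called Tmed10 higher at day 14 than at day 7 (0.40, adjusted p = 0.0268). A pseudogene, Tmed10-ps, could take or give reads. Tmed7 (ENSMUSG00000033184, chromosome 18, 46560235 to 46597535, minus strand) had 128, 134 and 149 CPM at day 7, 117, 152 and 128 at day 14 and 83, 91.9 and 112 in controls. Both irradiated groups lay above all controls. Tmed7 was higher at day 7 by 0.52 (SE 0.12, adjusted p = 0.00271) and at day 14 by 0.47 (SE 0.12, adjusted p = 0.046). In the corrected fit these values were 0.06 (adjusted p = 0.736) and 0.14 (adjusted p = 0.493), and neither was called. The falls of Tmed1 (−0.58, adjusted p = 0.0271), Tmed2 (−0.24, adjusted p = 0.0385) and Tmed4 (−0.31, adjusted p = 0.0191) were also not called after correction.

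The KDEL receptors bind ER proteins that end in the KDEL signal and return them from the Golgi. At day 7, 2 of 3 were lower and none was higher, with a median of −0.36. Kdelr1 (ENSMUSG00000002778, chromosome 7, 45872772 to 45883732, plus strand) had 223, 237 and 230 CPM at day 7, 265, 295 and 261 at day 14 and 310, 309 and 266 in controls, and fell by 0.36 (SE 0.09, adjusted p = 0.00556). Kdelr3 (ENSMUSG00000010830, chromosome 15, 79516411 to 79527739, plus strand) had 130, 135 and 153 CPM at day 7, 161, 170 and 139 at day 14 and 199, 164 and 173 in controls, and fell by 0.36 (SE 0.10, adjusted p = 0.0111). Day 7 libraries of both genes lay below all controls. Kdelr2 (ENSMUSG00000079111, chromosome 5, 143403838 to 143421901, plus strand) had 216, 229 and 242 CPM at day 7, 251, 273 and 227 at day 14 and 268, 256 and 257 in controls, and gave −0.19 (adjusted p = 0.125). After correction 0 of the 3 were called, and their median was −0.13.

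The cargo receptors had 4 of 6 lower at day 7 and none higher, with a median of −0.32. After correction all 6 of 6 were lower, with a median of −0.35. Ergic3 (ENSMUSG00000005881, chromosome 2, 156008045 to 156018279, plus strand) had 65.4, 79.3 and 68 CPM at day 7, 92.7, 96.9 and 86.5 at day 14 and 132, 103 and 89.3 in controls. Its controls were the most spread, yet all lay above day 7, and Ergic3 fell by 0.61 (SE 0.12, adjusted p = 0.00125). Ergic1 (ENSMUSG00000001576, chromosome 17, 26561489 to 26656934, plus strand), which like Ergic3 cycles between the ER and Golgi, had 415, 459 and 463 CPM at day 7, 512, 538 and 481 at day 14 and 584, 604 and 545 in controls. The 3 groups did not overlap. Ergic1 fell at day 7 by 0.37 (SE 0.088, adjusted p = 0.00356).

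Mcfd2 (ENSMUSG00000024150, chromosome 17, 87254443 to 87265935, minus strand), the soluble partner of the lectin Lman1, had 175, 181 and 177 CPM at day 7, 222, 239 and 191 at day 14 and 225, 232 and 238 in controls. It fell at day 7 by 0.38 (SE 0.091, adjusted p = 0.00381), and the day 7 libraries were the lowest 3 of the 9. Lman2 (ENSMUSG00000021484, chromosome 13, 55343833 to 55362783, minus strand), a lectin that binds high-mannose glycans, had 139, 152 and 142 CPM at day 7, 176, 184 and 148 at day 14 and 189, 168 and 166 in controls, and fell by 0.27 (SE 0.096, adjusted p = 0.037). Lman1 itself averaged 675 ± 29.4 CPM at day 7, 718 ± 60.8 at day 14 and 630 ± 30.8 in controls (SD, n = 3 each), and gave 0.10 at day 7 (adjusted p = 0.431). The sign of its day 7 value depended on the correction, which gave −0.30 (adjusted p = 0.0325). The same held for Ergic2, at 0.08 (adjusted p = 0.605) and −0.34 after correction (adjusted p = 0.0115).

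Some of these genes exist as pairs or trios that do the same job, and their shares per length within each library do not depend on library scaling. The shares were not corrected for the length trend. Sec23b made up 97.6, 97.9 and 97.8% of Sec23 at day 7, 97.9, 98.3 and 98.2% at day 14 and 98.5, 98.5 and 98.2% in controls. The Sec24d share of Sec24c and Sec24d was 50.8, 52.3 and 51.5% at day 7, 47.5, 54.4 and 43.4% at day 14 and 45.1, 42.3 and 49.2% in controls. The Copz2 share of the zeta subunit was 63.9, 64.6 and 62.7% at day 7, 64.8, 64.8 and 65.9% at day 14 and 67.3, 66.8 and 66.5% in controls. In these 3 sets the day 7 and control libraries did not overlap, and the mean share differed by −0.594 percentage points for Sec23b and −3.11 for Copz2. The Sec24d share averaged 51.5 ± 0.752% at day 7 and 45.5 ± 3.47% in controls. Each had the smallest p that this design allows, 0.1 (exact permutation test, two-sided), so none can pass 0.05. The day 7 log2 fold changes of Copz2 and Copz1 were −0.65 and −0.45, and −0.50 and −0.44 after length and GC correction. Those of Sec23a and Sec23b were 0.57 and 0.10, and 0.25 and −0.33 after correction. Those of Sec24d and Sec24c were 0.51 and 0.17, and 0.35 and 0.02 after correction.

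The other 5 sets overlapped between day 7 and control. Sec24b made up 50.6, 57.0 and 53.0% of Sec24a and Sec24b at day 7, 53.6, 48.4 and 56.4% at day 14 and 57.7, 62.4 and 53.2% in controls. Sar1b made up 40.8, 40.7 and 43.4% of Sar1 at day 7, 40.3, 46.4 and 43.3% at day 14 and 40.6, 44.4 and 40.9% in controls. Copg2 made up 34.8, 31.8 and 31.8% of the gamma subunit at day 7, 35.1, 32.6 and 36.2% at day 14 and 34.0, 38.1 and 35.4% in controls. The mean shares at day 7 and in controls differed by −4.24 percentage points for Sec24b, −0.338 for Sar1b and −3.08 for Copg2. Kdelr3 made up 28.0, 27.5 and 29.8% of the KDEL receptors at day 7, 29.1, 28.3 and 27.3% at day 14 and 31.2, 27.7 and 30.2% in controls. Sec16b made up 6.27, 5.69 and 8.07% of Sec16 at day 7, 8.42, 7.51 and 6.85% at day 14 and 6.75, 7.54 and 7.94% in controls. Their day 7 means differed from controls by −1.25 and −0.734 percentage points. Day 7 against control gave exact permutation p-values from 0.2 to 0.8 in these 5 sets.

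Ratios between partners of a complex were added after the values above were seen, as a description. The log2 ratio per length of Copa to Cope, both in the COPI outer layer, averaged 0.15 ± 0.06 at day 7, −0.47 ± 0.20 at day 14 and −0.81 ± 0.21 in controls. That of Copg1 to Copz1, which meet in the inner layer, averaged −1.17 ± 0.02 at day 7, −1.58 ± 0.14 at day 14 and −1.98 ± 0.06 in controls. Day 7 and control differed by 0.97 and 0.80, and by 0.57 and 0.47 after correction for length and GC content. The ratio of Lman1 to Mcfd2 averaged 0.28 ± 0.05 at day 7, 0.09 ± 0.04 at day 14 and −0.20 ± 0.03 in controls (SD, n = 3 each, throughout). Its day 7 difference of 0.48 came to 0.0001 after correction. For Tmed2 to Tmed10 the difference was 0.12 before correction and 0.50 after it. In all 7 ratios examined, before correction, the day 7 and control libraries did not overlap (exact permutation test, p = 0.1 each, the smallest possible). Taken singly, 37 of the 44 genes did not overlap between these groups, and the share over all tested genes was not counted. Sec31a with Sec13, Copa with Cope and Copg1 with Copz1 each join a gene called higher with one called lower. Their lack of overlap followed from that choice, so these p-values give no support.

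**Figure D5:**
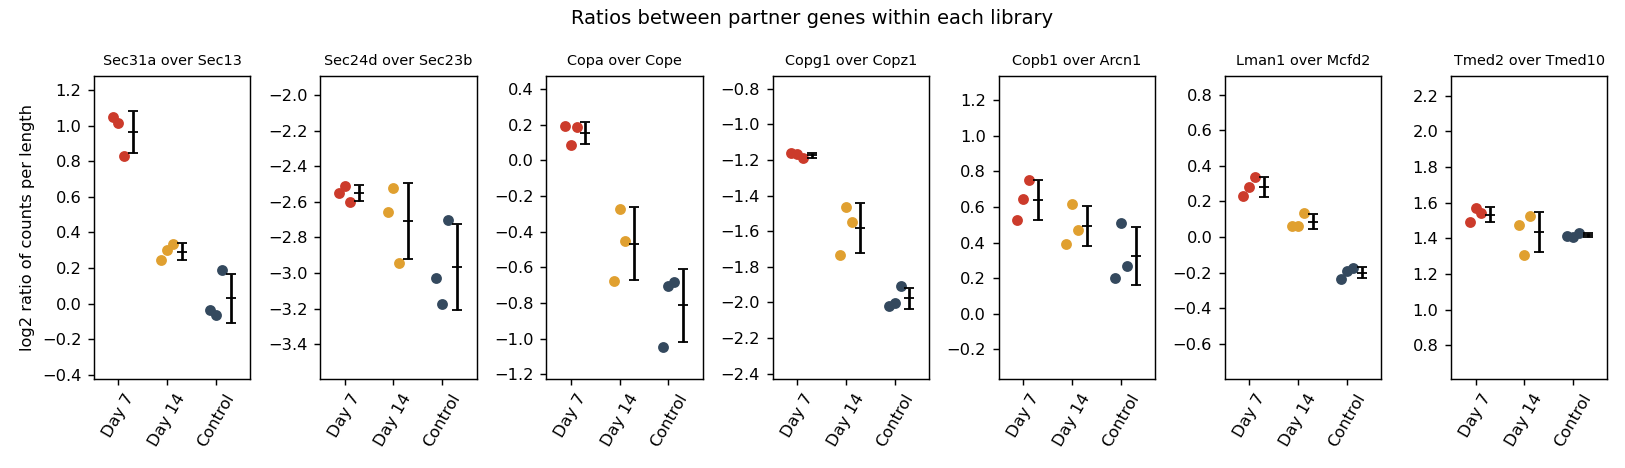
Log2 ratio of counts per length between 7 pairs of partner genes in each library, with the mean and SD of 3 libraries; all axes span the same range of log2 units and do not start at 0. Sec31a over Sec13, Copa over Cope and Copg1 over Copz1 stand highest at day 7 and lowest in controls, while Tmed2 over Tmed10 differs by 0.12 between day 7 and control.

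Levels between genes were compared per length, in TPM, which divides by exonic length and scales each library to the same total. In controls the most abundant of the 44 were Tmed3 at 333 TPM, Sec23b at 279, Tmed2 at 268, Kdelr1 at 253 and Copz2 at 236. Their SDs were 30.9, 10.8, 6.09, 14.5 and 12.3 TPM in the same order (n = 3 each). Tmed3 stood above Sec23b by more than the SD of either, and the later neighbours differed by amounts close to their SDs. The least abundant were Sec22c at 3.59 TPM, Sec23a at 4.60 and Tmed5 at 5.63. TPM was used only to compare genes within a group, since at day 7 the mean TPM of 88.6% of 15331 tested genes lay above controls, with a median log2 ratio of 0.59 over all genes and 0.50 over the 44. On that scale 38 of the 44 had a higher mean at day 7. Together the 44 genes took 1.16 to 1.22% of counts at day 7, 1.08 to 1.18% at day 14 and 1.01 to 1.05% in controls.

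Of the 33 calls at day 7, 14 held under every alternative analysis and with each library left out: Sec16a, Sec24b, Sec31a, Sar1a, Sec22a, Cope, Copz1, Copz2, Tmed3, Tmed9, Tmed10, Mcfd2, Ergic1 and Ergic3. With single libraries left out 21 of 33 held throughout. How many of the genes called over the whole series held likewise was not counted. Without day 7 replicate 1 the count of lower genes came to 13 against 21, and calls in either direction over all genes to 3106 against 4692. Single omissions ended the calls of Sec13 (day 7 replicate 1, adjusted p = 0.0617), Preb (control 1, 0.0511), Copg1 (day 7 replicate 3, 0.0556) and Sec24d (control 2, 0.0554). Those of Sec16b (control 2 or day 7 replicate 3, up to 0.0574) and Kdelr3 (control 1 or day 7 replicate 1, up to 0.0616) also ended. The call of Sar1b was lost without control 2, day 7 replicate 1 or day 7 replicate 2 (up to 0.122), and that of Tmed4 without control 1, control 2 or day 7 replicate 1 (up to 0.11). Tmed1 was lost without control 1 or 2 or day 7 replicate 1 or 2 (up to 0.105), and Lman2 without control 1 or 2 or any day 7 library (up to 0.148). Tmed2 was lost without control 1 or 2, day 7 replicate 1 or 2 or day 14 replicate 1 or 3 (up to 0.179), and Sec22b without any control, any day 7 library or day 14 replicate 1 (up to 0.143).

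The 5 calls involving day 14 against another group were less stable. Copz2 at day 14 against control was lost without control 1 or 2, day 7 replicate 2 or any day 14 library (adjusted p up to 0.148). Tmed7 was lost without those libraries or day 7 replicate 3 (up to 0.21). For day 14 against day 7, Sec16a was lost without day 7 replicate 1 or 2 or day 14 replicate 1 or 3 (up to 0.112). Sec31a was lost without day 7 replicate 2 or 3 or day 14 replicate 1 or 3 (up to 0.135), and Tmed9 without day 7 replicate 1 or 2 or day 14 replicate 1 or 2 (up to 0.0908). Without control 3, whose length trend was the weakest of the controls at −0.17, day 14 against control had 2 genes higher and 7 lower among the 44, and 1937 calls against 270 over all genes.

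For 12 of the 44 genes an exon overlaps a gene on the other strand: Sec23a, Sec24c, Preb, Copa, Copg1, Copg2, Tmed1, Tmed5, Tmed10, Kdelr3, Ergic1 and Ergic2. Whether reads were counted by strand is not given in the sources used here, so their counts are uncertain to that extent.

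Other genes of the route were taken from 5 lists that hold none of the 44, and their day 7 counts stand beside 15.8% of all genes higher and 14.8% lower, or 7.34% and 14.7% after correction for length and GC content. Of 34 SNAREs, tethers and Rab proteins, 7 were higher and 10 lower at day 7, with a median of −0.14. After correction 2 were higher and 10 lower, with a median of −0.23, Trappc11, Trappc4 and Trappc5 among those called. Trappc11, of a TRAPP tethering complex, was higher by 0.56 (adjusted p = 0.000604), while Trappc4 (−0.58, adjusted p = 0.00101) and Trappc5 (−0.54, adjusted p = 0.00086) of the same family and Rab1b, a GTPase of ER to Golgi traffic, fell (−0.49, adjusted p = 0.000844). At day 14 against day 7, Trappc3 (0.46) and Trappc4 (0.42) were higher and Trappc11 was lower (−0.40, adjusted p = 0.0274), and none of these 3 was called after correction. Of 10 genes of the Arf cycle, which drives COPI assembly, 2 were higher and 3 lower at day 7, and 0 were higher and 2 lower (Arf5 and Arfgap1) after correction. Arf5 (−0.54, adjusted p = 0.00049), Arf1 (−0.45, adjusted p = 0.00132) and Arfgap1 (−0.28, adjusted p = 0.0295) fell, and the exchange factors Arfgef1 (0.54, adjusted p = 0.00847) and Arfgef2 (0.31) rose.

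Of 18 tested genes for other ER exit proteins, 2 were higher at day 7 (Mia2, 0.45, adjusted p = 0.00159, and Tmed8, 0.57) and 10 were lower, Yif1b (−0.63, adjusted p = 0.000255), Cnih1 (−0.46, adjusted p = 0.00193) and Yif1a (−0.46, adjusted p = 0.00384) among them. After correction 0 were higher and 7 were lower, Yif1b and Cnih1 among them, with a median of −0.20. Yif1b (0.37) and Cnih1 (0.34) were higher at day 14 than at day 7, with adjusted p-values of 0.0394 and 0.0416, and neither was called after correction. Of 17 genes for entry into the ER, the step before this route, 9 were lower at day 7 and none was higher, with a median of −0.40, and after correction 12 were lower and none was higher, with a median of −0.48. Among those lower in both fits were the channel subunits Sec61g (−0.86, adjusted p = 3.64e-05) and Sec61b (−0.81, adjusted p = 0.000126) and the translocon-associated Ssr2 (−0.76, adjusted p = 4.09e-05) and Ssr4 (−0.66, adjusted p = 0.000123). Sec61g was the only gene of these 5 lists called at day 14 against control (−0.64, adjusted p = 0.0155), and Ssr2 (0.46), Srprb (0.48), Sec61b (0.49) and Spcs2 (0.34) were higher at day 14 than at day 7. After correction Sec61g was still called at day 14 against control, and Ssr1, Ssr2, Srprb and Spcs2 were higher at day 14 than at day 7.

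Of 9 transcription factors of the ER stress response and of secretory cells, 2 were lower at day 7 and none was higher, and after correction 1 was lower (Atf4) and 1 was higher (Creb3l4). Atf4 had 298 ± 8.01 CPM at day 7, 339 ± 46.3 at day 14 and 444 ± 86.2 in controls (SD, n = 3 each), and fell by 0.57 on the log2 scale (adjusted p = 0.0021). Atf6b gave −0.34 (adjusted p = 0.0198). Xbp1, which binds the UPRE motif, gave −0.23 (adjusted p = 0.0517), and Creb3l1, the most abundant of the 9, had 2045 ± 81.6 CPM at day 7, 2099 ± 124 at day 14 and 2059 ± 117 in controls (adjusted p = 0.947 at day 7).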

How the data were processed

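RNA-seq of 9 mouse sublingual gland libraries was deposited by the authors as whole-number counts per gene, 1 table per library, with no normalization. Per the submitters' processing notes, STAR, featureCounts, DESeq2 and the mm10 build were used; versions, annotation and strand setting: not given in the sources used here. Identifiers were matched to GENCODE M21 (GRCm38, 54495 matched), which also gave coordinates, lengths and GC content.

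Counts were fitted in edgeR 4.0.16 (R 4.3.3): filterByExpr, TMM, robust quasi-likelihood F test (two-sided, 6 residual degrees of freedom) on 3 groups in 9 libraries, with Benjamini-Hochberg adjusted p under 0.05 over 15348 genes. The biological coefficient of variation was 16.1%. SE is the log2 fold change divided by the square root of F. CPM is TMM-scaled, and TPM was computed from counts and exonic length. Alternatives were DESeq2 size factors, TMM without the 20 most abundant genes, no filter, DESeq2 1.42.0 (Wald test), the 6 libraries compared alone, a replicate block, a correction for length and GC content (natural splines, 5 degrees of freedom each), both together, a threshold of 0.01 and each library left out. Values in all libraries are given for up to 4 genes per role with the smallest p over the 3 comparisons and, as shares, for the paralogue sets; Sec13 and Sar1a were added after their values were seen, as were the corrected counts of the 5 other lists. Up to 4 genes with the smallest p are named of each other list, besides those in a direction with 5 or fewer calls. Genes and lists were chosen with earlier results of these data known. A chi-square of counts, divided by its degrees of freedom, was 9.93 to 138 between libraries of a group, above sampling noise, and each library was treated as a sample. The floor of 3 counts covers counting error only. Promoter sequences are RefSeq's for GRCm38.p6; Arcn1, Tmed2, Tmed7, Kdelr2 and Lman1 were not matched.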

Additional observations from a re-analysis of the deposited data

Results flagged for a closer look

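The direct comparison of day 14 with day 7 tests whether the 2 irradiated groups differ, and 3 of the 44 genes passed it. Sec16a, the ER exit site scaffold, averaged 781 ± 35.6 CPM at day 14 and 1029 ± 128 CPM at day 7 (SD, n = 3 each), a log2 fold change of −0.3966 (edgeR, adjusted p = 0.0194). Sec31a, of the COPII cage, averaged 412 ± 43.3 CPM at day 14 and 535 ± 45.0 CPM at day 7, a change of −0.3786 (edgeR, adjusted p = 0.0244). Tmed9, a p24 protein, averaged 285 ± 23.1 CPM at day 14 and 214 ± 14.6 CPM at day 7, a change of 0.4141 (edgeR, adjusted p = 0.0166). In each, the day 14 and day 7 libraries did not overlap, as was true of 20 of the 44 genes. The share over all genes was not counted. After correction for length and GC content Tmed9 was still called, while Sec16a (−0.26, adjusted p = 0.119) and Sec31a (−0.26, adjusted p = 0.141) were not.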

How the results depend on the processing

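At day 7 against control, 12 genes higher and 21 lower of the 44 came to 10 to 13 and 13 to 21 with each library left out (all genes 3106 to 5314, against 4692). The length and GC correction gave 3 higher, with or without the replicate block, and a median of −0.2392 (−0.2398 with the block). It called 3384 genes in all (3232 with the block). It turned Arcn1 to −0.2794 (−0.2787 with the block), Lman1 to −0.3044 (−0.3029) and Ergic2 to −0.3388 (both). At an adjusted p under 0.01, 13 were lower and 2631 genes were called in all. The counts at day 14 against control (1 higher, 1 lower, 270 in all) came to 3 higher and 1300 in all with no filter, 3 lower and 1042 in all with DESeq2, 0 higher and 157 in all with the 6 libraries alone, 0 lower and 113 in all with the block, 0 higher and 154 in all (122 with the block) after correction, and 0, 0 and 11 under 0.01. With single libraries left out they ran from 0 to 2, 0 to 7 and 13 to 1937. The counts at day 14 against day 7 (1 higher, 2 lower, 1011 in all) came to 5 higher and 1394 in all with no filter. With DESeq2 they were 7 higher, 4 lower and 1418 in all. With the 6 libraries alone 5 were higher, and 1472 genes were called in all. After correction 3 were higher and 0 lower with or without the block, and 911 were called in all (817 with the block). Under 0.01 the counts were 0, 0 and 264, and single omissions gave 0 to 6, 0 to 4 and 330 to 1415. The cause of these shifts was not tested. The Sec24d share differed at day 7 by 4.38 to 7.83 points and the Kdelr3 share at day 14 by up to −2.50 points with a control left out.

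Deviations of libraries with the same replicate number correlated at −0.11 to 0.04, and those of libraries with different numbers at −0.09 to 0.16. With 3 libraries per group, these values cannot settle whether the numbers pair the samples. The block gave 12 genes higher and 20 lower at day 7, the loss being Sec22b, and 4319 genes called in all. Depth was lowest for Tmed1, with 98 to 117 counts per library at day 7 and the largest SE of the 44 genes there (0.19); the parts of counting error and of spread between libraries in the SEs were not separated.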
